A study of Mus musculus with 50 samples.

Results

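The regions described here are m6A peaks of activated mouse B cells that lie around a stop codon but more than 50 nt from the nearest consensus motif. The authors' table holds 32009 peaks on 14219 transcripts, and the ones taken from it are those annotated around the stop codon with an absolute motif distance above 50 nt. There were 923 such peaks on 885 transcripts, which is 13.6% of the 6767 stop-codon peaks and 2.88% of all peaks. One further stop-codon peak has no motif distance and was left out, and the other 5843 lie within 50 nt of the motif and are called near peaks below.

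The peaks come from 12 m6A-seq libraries of B cells kept overnight with LPS, a component of bacterial outer membranes that makes B cells proliferate. The cells were AIDcre Mettl3-flox/+ (3 immunoprecipitated and 3 Input libraries) or AIDcre Mettl3-flox/flox (3 and 3). Both genotypes carry AIDcre, a recombinase driven from the AID locus, which comes on in B cells after activation, so deletion depends on how far that locus had been used after 1 night, which was not measured here. The strain label of these libraries carries a different number in each, so no strain beyond C57BL is given, and neither the age of the mice nor whether replicates came from separate mice is stated in the labels. Each peak has a pooled score per arm, called test and comparator here, in 2 score versions, without their formula. The test arm is read as flox/+ because the authors' METTL3-dependent list holds peaks that score higher there, and every direction below rests on that reading. Because scores are pooled, a peak has no replicate spread here, and the depth of the libraries is unknown.

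N6-methyladenosine (m6A) is adenosine of messenger RNA that carries a methyl group, added mostly by a complex whose catalytic subunit is METTL3 and read by proteins such as those of the YTH family, which can speed the decay of marked messages. It gathers around stop codons and in the first part of the 3' UTR, within a short consensus sequence that the writer complex prefers. An antibody pull-down recovers RNA fragments rather than single bases, so a peak marks a stretch around a methylated base. The table does not spell out the motif it measured from, and its transcript identifiers matched none of the gene name tables at hand, so peaks are named by identifier.

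The motif lay upstream of the peak in 480 of the 923 peaks and downstream in 443. The sign of the distance was read from the table: no peak had a positive distance larger than its own position in the transcript, whereas 2317 peaks had a negative distance larger than it, so a positive distance places the motif on the 5' side. Absolute distances had a median of 78 nt (quartiles 62 to 110) and reached 1296 nt. They piled up close to the limit that defines the group, with 446 peaks at 51 to 75 nt, 193 at 76 to 100 nt, 238 at 101 to 200 nt and 46 beyond 200 nt. The 139 stop-codon peaks at 46 to 50 nt, just inside the near group, had a median score difference between arms of 0.60, and the 110 at 51 to 55 nt, just outside it, had 0.63. Of these, 49 (35.3%) and 52 (47.3%) were in the METTL3-dependent list. The position itself was not sharply set: the 2 transcript positions the table gives for a peak differed by a median of 8 nt for the far peaks (upper quartile 21) and 6 nt for the near ones (upper quartile 18).

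Far stop-codon peaks were weaker than near ones in both arms. Their median test-arm score was 2.22 (quartiles 1.56 to 2.99, range -1.08 to 6.53), against 2.51 (1.88 to 3.31) for near peaks and 2.19 for all peaks. In the comparator arm the median was 1.68 (1.08 to 2.35, range -1.97 to 5.65), against 1.86 (1.19 to 2.68) for near peaks and 1.94 for all. On the second version the medians were 2.98 and 2.08 for far peaks, and 3.56 and 2.56 for near ones. The distributions overlapped over nearly their whole width. Within the far group the test-arm score was lower at longer distances, with medians of 2.33 at 51 to 75 nt and 2.35 at 76 to 100 nt, 2.02 at 101 to 200 nt and 1.77 beyond 200 nt. The rank correlation of the mean score of both arms with distance was weak, with Spearman's rho of -0.135 over 923 peaks that share the same libraries.

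**Figure D1:**
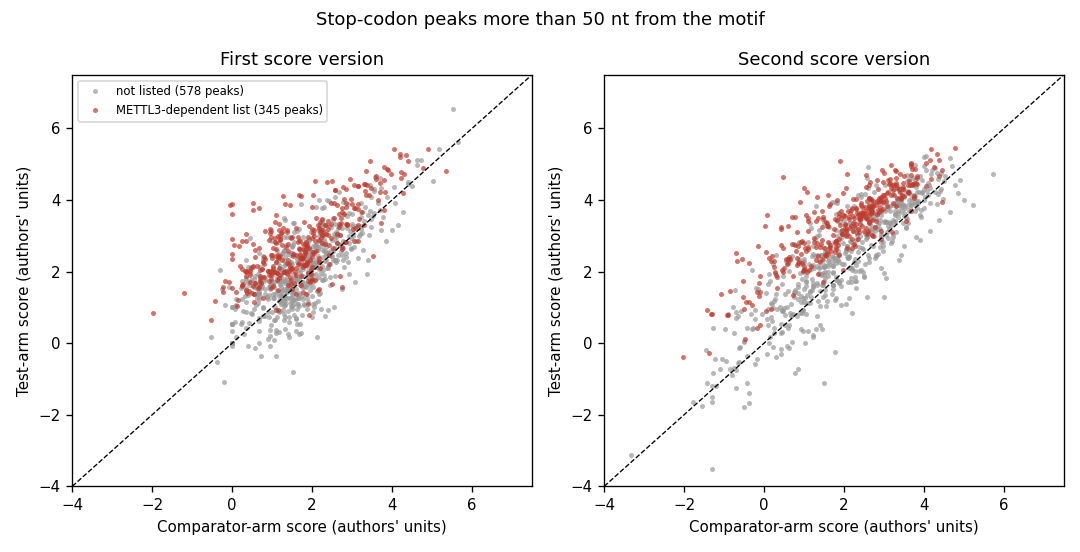
Scores of the 923 stop-codon peaks beyond 50 nt of the motif, with the comparator-arm score on the x axis and the test-arm score on the y axis, both in the authors' units, for each score version. Each point is 1 peak, red where the authors list it as METTL3-dependent (345 peaks) and grey otherwise (578), and the dashed line marks equal scores; 685 peaks lie above the line in the left panel and 767 in the right.

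Most far stop-codon peaks scored higher in the flox/+ arm. The test arm was higher in 685 of 923 by first-version scores (74.2%, against 61.7% of all peaks) and in 767 by second-version ones (83.1%, against 70%). Test minus comparator arm, the median difference was 0.57 (95% interval of the median 0.48 to 0.62, quartiles -0.01 to 1.04) on the first version. It was 0.65 (0.63 to 0.67) for near peaks and 0.25 for all peaks. On the second version the medians were 0.74 (0.68 to 0.82), 0.90 (0.88 to 0.92) and 0.49. The far peaks' median thus lay below that of near peaks by less than 0.2 score units on either version, and above that of all peaks on both. These intervals treat peaks as independent and do not measure the spread between replicates.

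The METTL3-dependent list held 345 of the 923 far stop-codon peaks, 37.4% (exact Clopper-Pearson 95% interval 34.2% to 40.6%), against a background of 28.1% of all peaks. Near stop-codon peaks were listed more often, 2823 of 5843 or 48.3% (47.0% to 49.6%), a gap of 10.9 percentage points (95% Newcombe interval 7.52 to 14.3, counting error only). A peak is in the list where the authors' unadjusted p is under 0.1 on either score version and the test arm is higher on either version, a rule that matched membership for every peak of the table. Both versions met that threshold with a higher test arm in 114 far peaks (12.4%) and in 1103 near peaks (18.9%), against 8.73% of all peaks. The reverse rule, requiring a higher comparator arm, held for 54 far peaks (5.85%, 4.43% to 7.57%), against 10.7% of all peaks. Of these 54, 36 were in the list as well because their versions differ in direction. The same held for 197 of the 246 near peaks that met the reverse rule, and for 1189 of the 3430 among all peaks.

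No far stop-codon peak passed an adjusted p of 0.05 when the p-values of the authors' deposited table were adjusted by Benjamini-Hochberg over all peaks, where the background was 0% on both versions. The smallest adjusted values among far peaks were 0.353 and 0.219. Without adjustment, 100 of the 918 far peaks with a first-version p in the authors' deposited table were under 0.05 (11.5% of all peaks were), with the test arm higher in 92 (10.0%) and the comparator arm higher in 8 (0.871%). The backgrounds were 8.18% and 3.35%. On the second version 171 of 923 were under 0.05 (14.9% of all peaks were), 167 (18.1%) with the test arm higher and 4 with the comparator arm higher, where the backgrounds were 12.9% and 2.01%. Near stop-codon peaks had 17.2% and 25.7% with the test arm higher on the first and second versions. Membership of the list is therefore a description of a peak and not a call that passed correction.

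The listed share was lower at longer motif distances. It was 55.9% for stop-codon peaks within 5 nt of the motif and 40.2% (37.2% to 43.2%) at 26 to 50 nt. Among far peaks it was 39.7% (35.1% to 44.4%) at 51 to 75 nt, 38.3% (31.5% to 45.6%) at 76 to 100 nt, 34.0% (28.0% to 40.4%) at 101 to 200 nt and 28.3% (16.0% to 43.5%) beyond 200 nt. The intervals of neighbouring far bands overlap, and in the narrow windows on either side of 50 nt given above the listed share was the higher just outside the limit. Median first-version differences were 0.65 within 5 nt and 0.49, 0.72, 0.51 and 0.43 in the 4 far bands. On the second version they were 0.92 within 5 nt and 0.72, 0.87, 0.76 and 0.52. Within the far group the first-version difference had a Spearman's rho of -0.0131 with distance. The side of the motif made no difference larger than the counting error: 171 of 443 peaks with a downstream motif were listed (38.6%) and 174 of 480 with an upstream one (36.2%), a gap of 2.35 percentage points (-3.88 to 8.57).

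**Figure D2:**
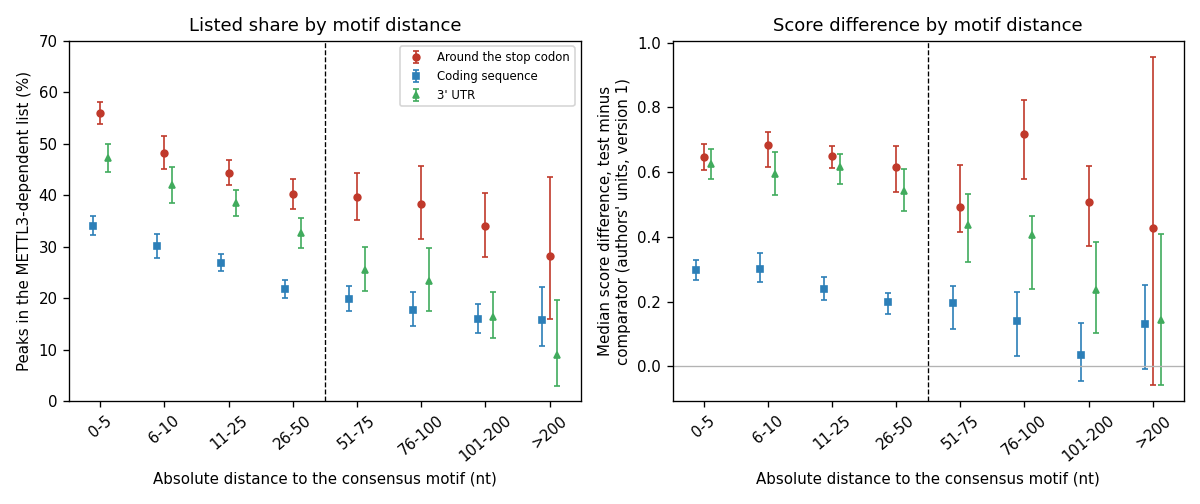
Share of peaks in the METTL3-dependent list (left, percent) and median first-version score difference, test minus comparator arm (right, authors' units), by absolute motif distance in nt for peaks around the stop codon, in the coding sequence and in the 3' UTR. Bars are 95% intervals over peaks and the dashed line marks 50 nt; right of it the stop-codon points lie at 39.7% to 28.3% for the listed share and at 0.43 to 0.72 for the difference.

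Far peaks elsewhere in the transcript were listed less often. The list held 435 of 2419 far coding-sequence peaks (18.0%, 16.5% to 19.6%) and 207 of 966 far 3' UTR peaks (21.4%, 18.9% to 24.2%). The far stop-codon share lay 19.4 percentage points (15.9 to 22.9) above the first and 15.9 (11.9 to 20.0) above the second. Median first-version differences were 0.13 in the coding sequence and 0.37 in the 3' UTR, against 0.57 around the stop codon. For peaks 101 to 200 nt from the motif the median was 0.04 (-0.05 to 0.13) in the coding sequence, 0.24 (0.10 to 0.39) in the 3' UTR and 0.51 (0.37 to 0.62) around the stop codon, where the last 2 intervals overlap. Far stop-codon peaks were also the stronger ones, with a median mean score of both arms of 1.94 against 1.68 and 1.49, so strength moved with this difference and its part was not tested.

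Far stop-codon peaks were called in fewer replicates than near ones. The table gives a number of peaks per arm from 0 to 3, which is taken here to count the replicates in which the peak was called. Of the far peaks 742 (80.4%) were called in at most 1 replicate of either arm, against 56.8% of near and 63.8% of all peaks. No call at all was recorded for 162 far peaks (17.6%), 15.6% of near and 15.9% of all peaks. A call in at least 2 test replicates was recorded for 156 far peaks (16.9%), 39.6% of near and 29.4% of all peaks. A call in at least 2 comparator replicates was recorded for 88 (9.53%), 22.3% and 24.1%. All 6 calls were present in 26 far peaks (2.82%) and in 566 near peaks (9.69%), against 9.58% of all peaks. More test than comparator calls were found in 388 far peaks (42.0%) and the converse in 299 (32.4%), close to the 38.0% and 29.3% of all peaks, whereas among near peaks these shares were 49.8% and 17.9%. Only 11 far peaks (1.19%) were called in all 3 test and no comparator replicate, against a background of 1.95%, and 3 showed the converse, against 0.918%.

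Listed shares are also given by number of calls, as a description only, since 93 of the 181 far peaks called in at least 2 replicates of an arm and 1217 of the 2522 near ones reached that number in the test arm alone, the arm in which listed peaks are the higher. Of these 181 far peaks 108 were listed (59.7%, 52.1% to 66.9%), and of the 2522 near peaks 1532 (60.7%, 58.8% to 62.7%), a gap of 1.08 percentage points (-6.06 to 8.59). The interval still allows a gap of several points either way. The shares were 52.7% of 93 far and 52.0% of 955 near peaks at 2 calls, and 67.0% of 88 and 66.0% of 1567 at 3 calls. With 1 call in the arm with more calls, 184 of 580 far peaks (31.7%, 28.0% to 35.7%) and 955 of 2409 near peaks (39.6%, 37.7% to 41.6%) were listed. Calls and list come from the same libraries, so the calls give the list no independent support, and how far the calls account for the gap was not tested. Within tertiles of all peaks by first-version mean score, the gap was 12.3 percentage points (6.90 to 17.2) in the weakest, 8.33 (2.39 to 14.1) in the middle and 6.80 (0.326 to 13.2) in the strongest. By second-version scores it was 15.7 (10.6 to 20.4), 5.95 (-0.325 to 12.2) and 6.69 (-0.187 to 13.2), so that the intervals of the upper 2 tertiles included 0. The mean score includes the score of the test arm, in which listed peaks are the higher, so the tertiles too are a description only.

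**Figure D3:**
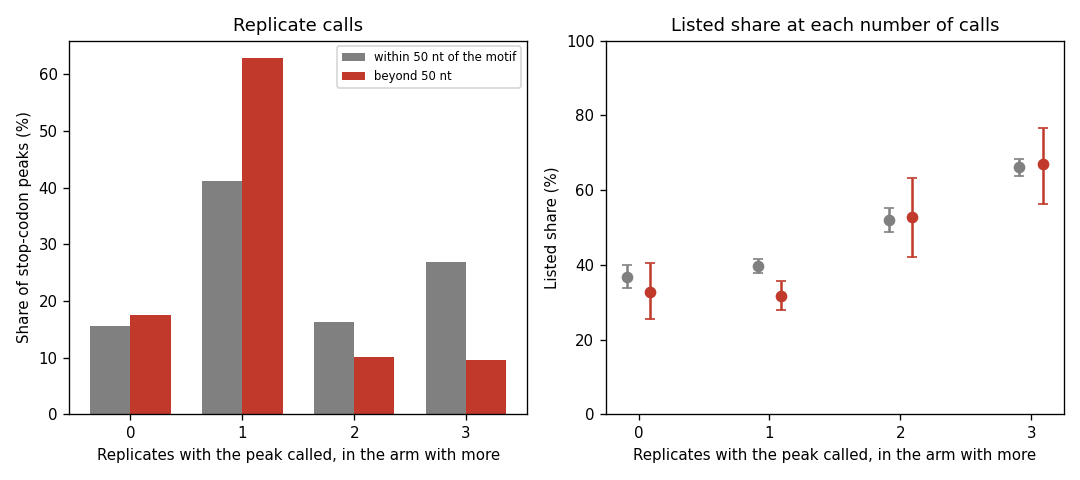
Left, share of stop-codon peaks (percent) by how many replicates had the peak called, in the arm with more calls, for peaks within 50 nt of the motif (grey) and beyond it (red). Right, listed share (percent, with 95% Clopper-Pearson intervals) at each number of calls; at 1 call red lies at 31.7% and grey at 39.6%, at 2 calls at 52.7% and 52.0%, and at 3 calls at 67.0% and 66.0%.

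Far stop-codon peaks mostly shared their transcript with other peaks. Their 885 transcripts carried a median of 3 peaks (quartiles 2 to 5, highest 16), against 2 over all transcripts. For 139 far peaks (15.1%) the peak was the only one of its transcript, as it was for 17.3% of near peaks. The nearest other peak was a median of 198 nt away (quartiles 113 to 521) and never closer than 51 nt. For near peaks the median was 218 nt (quartiles 102 to 856), with the same minimum of 51 nt. The listed share was 47.9% (39.5% to 56.4%) for the 144 far peaks with another peak within 100 nt, 37.6% (31.7% to 43.9%) for the 255 with the nearest at 101 to 200 nt and 32.6% (25.9% to 39.9%) for the 184 with it at 201 to 500 nt. It was 35.8% (29.2% to 42.9%) for the 201 with the nearest beyond 500 nt and 34.5% (26.7% to 43.1%) for the lone ones. Lone near peaks were listed in 47.2% (44.1% to 50.3%) of 1013 cases. The intervals of the lone far and lone near peaks do not overlap.

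On 289 transcripts a far and a near stop-codon peak stood side by side, a median of 120 nt apart (quartiles 95 to 171). These transcripts held 293 far and 337 near stop-codon peaks, and scores were averaged where a kind had several. A kind counts as listed where any of its peaks was, which favours the more numerous near peaks. Both kinds were listed on 83 of them, only the near on 64, only the far on 37 and neither on 105. The far peak had the lower mean score on 185 transcripts (64.0%, 58.2% to 69.6%) and the lower score difference on 175 (60.6%, 54.7% to 66.2%). The median gap in difference, far minus near, was -0.10 (-0.17 to -0.05) by first-version scores and -0.14 (-0.24 to -0.07) by second-version ones. Taking the peak with most calls of each kind, the near one was called in more replicates of an arm on 144 transcripts and the far one on 54. This count likewise favours the near peaks. The score differences of the 2 peaks moved together across these transcripts, with Spearman's rho of 0.702. The value was 0.877 for the 146 pairs up to 120 nt apart and 0.533 for the 143 pairs farther apart. Both peaks come from the same libraries and are not independent readings.

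**Figure D4:**
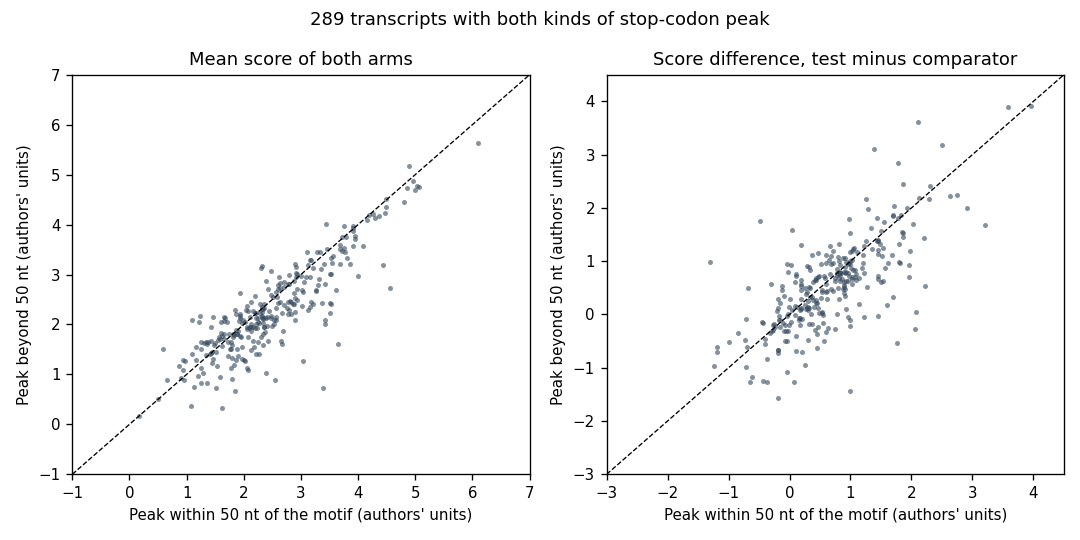
The 289 transcripts with stop-codon peaks on both sides of the 50 nt limit: near peak on the x axis, far peak on the y axis (means where a transcript has several), for the mean score of both arms (left) and the first-version score difference, test minus comparator (right), in the authors' units. Each point is 1 transcript and the dashed line marks equal values; 185 points lie below it on the left and 175 on the right.

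The score differences of other peaks on the same transcripts varied by transcript part, and also moved with that of the far peak. Transcript-start peaks were present on 403 of the 885 transcripts, with a median difference of -0.34 where the far stop-codon peak had 0.57, and the far peak was the higher on 333 (82.6%). Coding-sequence peaks on 372 transcripts had 0.27 against 0.49 for the far peak, which was higher on 224 (60.2%). With 3' UTR peaks, on 328 transcripts, the medians were 0.57 and 0.55 and the far peak was higher on 159 (48.5%). Across transcripts the far peak's difference had a Spearman's rho of 0.547 with that of 3' UTR peaks, 0.429 with coding-sequence peaks and 0.266 with transcript-start peaks, all from the same libraries.

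The strongest flox/+ excess backed by calls in all 3 test replicates was in uc009pbj.1, on chromosome 9 at position 43611911 (positions are taken as mouse build mm9). This was the only peak of its transcript, with the motif 82 nt downstream. In the authors' deposited table its test-arm score was 3.91 and its comparator-arm score 0.53, unadjusted p = 0.0204, and 5.08 and 1.91 on the second version, p = 0.000669. It was called in 3 test and 0 comparator replicates. The 3 larger first-version differences, in uc007edh.1, uc007zvv.2 and uc009hwg.1, ran from 3.61 to 3.91. Each rested on 1 test call and none in the comparator arm, where first-version scores lay between -0.05 and 0. On the second version the differences were 3.17 in uc007zvv.2 and 3.33 in uc009hwg.1. In uc007edh.1, the largest on the first version, it was 1.10, with an unadjusted p of 0.259 in the authors' deposited table. Each of these 3 had another peak within 108 nt.

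The far peaks with the smallest unadjusted p-values all had the higher score in the test arm. In the authors' deposited table uc008yzt.1, on chromosome 5 at position 115061976, scored 2.71 and 0.17 in the test and comparator arms, unadjusted p = 0.00154, and 4.72 and 2.08 on the second version, p = 0.00111. The smallest first-version p of the authors' deposited table among far peaks was 0.000701, in uc007rat.1 on chromosome 13 at position 67508918, where the test arm scored 2.39 and the other 1.00. On the second version the unadjusted p of uc007rat.1 in the authors' deposited table was 0.0539. The smallest second-version p in the authors' deposited table was 0.000334, in uc009jsh.2 on chromosome 7 at position 133835008, where the test arm scored 2.70 and the other -0.16. The peaks in uc007rat.1 and uc009jsh.2 each had 1 test call, and that in uc008yzt.1 had 2, all without a comparator call. The peak in uc008cyr.1, on chromosome 17 at position 50133661, was called in 3 test and 0 comparator replicates and scored 3.79 and 2.71 on the second version of the authors' deposited table, p = 0.000564. In all 4 the adjusted p (Benjamini-Hochberg over all peaks) stayed above 0.2.

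The 4 far peaks with the highest first-version mean score of both arms had first-version differences from -0.02 to 1.01. On the second version their scores ran from 3.80 to 3.91 (test) and from 2.90 to 3.82 (comparator). The highest second-version scores of far peaks were 5.45 and 5.72, so the ranking is one of the first version. The highest was in uc008php.1, on chromosome 3 at position 58264060 and 258 nt from the motif, with 6.53 in the test and 5.53 in the comparator arm. That peak had 1 comparator call and no test call. Next came uc007bgr.1, on chromosome 1 at position 64644114, with 5.63 and 5.65 and no call in any replicate. Near stop-codon signal 115 nt away on that transcript had a first-version mean score of 6.09 and calls in 3 replicates of an arm. The peak of uc007ksn.2, on chromosome 11 at position 86316047, had 5.42 and 5.16 and a call in all 6. Of these 4 only uc008sbk.2 was listed, with 5.42 and 4.90 on the first version and a second-version p of 0.0458 in the authors' deposited table. Its far peak had a first-version mean score of 5.16, against 4.89 for near stop-codon signal 83 nt away on that transcript.

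The 4 peaks farthest from the motif scored below the far median in both arms on the first version and were not listed. In uc009krp.1, on chromosome 8 at position 3496954, the motif was 1296 nt upstream and the first-version scores were -0.08 (test) and 0.95 (comparator), but 3.16 and 1.80 on the second. In uc009imu.1, on chromosome 7 at position 107476209, the motif lay 580 nt downstream and the scores were 0.61 and 0.66. For uc009bme.1, 538 nt from the motif, they were 1.29 and 1.50, and for uc007pkn.2, 385 nt from it, 1.74 and 1.16. Each had at most 2 calls in an arm.

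The 4 most negative first-version differences were in peaks whose test-arm score lay below the far median and which were outside the list. The most negative first-version difference was -2.33, in uc012czt.1 on chromosome 3 at position 153570610, with -0.82 in the test and 1.51 in the comparator arm and 1 comparator call. In the authors' deposited table uc007qom.1, on chromosome 13 at position 54700084, scored 1.00 and 2.55, unadjusted p = 0.00876, with 3 comparator calls and no test call, but 2.04 and 2.42 on the second version, p = 0.477.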

How the data were processed

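The data were 2 tables deposited by the authors: all de novo peaks and the METTL3-dependent list. The submitters' processing notes name builds mm9 and mm10 and the tools DESeq2, SAMtools 1.3.1, HTSeq, STAR and cutadapt for the series as a whole. Peak caller, score formula and test: not given in the sources used here. The deposited peak score is 1 pooled number per arm and version, and the deposited p-value is unadjusted and was missing for 5 far stop-codon peaks on the first version. All 9005 listed peaks were found in the full table. Positions of 164 peaks ran past GRCm38 chromosome ends, so they were taken as mm9, and no sequence or annotation was read from the GRCm38 reference. None of the 14219 transcript identifiers matched a name table.

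Shares have exact Clopper-Pearson 95% intervals, gaps Newcombe intervals and medians order-statistic intervals, which cover counting error only. No test between samples was possible with pooled scores. P-values were adjusted by Benjamini-Hochberg over all peaks. Named peaks were those with extreme first-version differences, the highest first-version mean scores or calls in all 3 replicates of 1 arm only. Peaks with the smallest p-values, the longest distances or 2 listed far peaks on a transcript were named too. These made 34 in all, of which the clearest are given. The peaks, list and rules were chosen with earlier results of these data known. Computations were tested on simulated data. The other 38 libraries were not analysed here. Tools were Python 3.11.15, numpy 2.4.6, pandas 2.3.3, scipy 1.17.1 and matplotlib 3.10.9.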

Additional observations from a re-analysis of the deposited data

How the results depend on the processing

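The listed share of far stop-codon peaks, 37.4%, was 38.7% with a limit of 30 nt, 35.2% with 75 nt and 33.1% with 100 nt. It was 41.9% with the strongest peak of each transcript, 44.8% among peaks with a mean score above the median of all peaks and 59.7% among those called in at least 2 replicates of an arm. An unadjusted p under 0.05 with a higher test arm gave 10.0% with first-version values and 18.1% with second-version ones. The median difference of 0.57 was 0.74 on the second version and 0.70 among peaks called in at least 2 replicates of an arm, and between 0.51 and 0.61 under the other 6 settings. The count of 0 peaks past an adjusted p of 0.05 was also 0 on the second version, and 100 and 171 at an unadjusted p under 0.05 on the first and second versions. The gap of 10.9 percentage points between near and far peaks was 14.3 with a limit of 100 nt, 6.38 (0.265 to 12.3) with only each transcript's strongest peak and 1.08 (-6.06 to 8.59) among peaks called in at least 2 replicates of an arm. It was between 8.61 and 12.5 under the other 4 settings. For the gap, the settings on replicate calls and on 1 row per position were chosen after seeing the data, as was the unadjusted second-version count. The setting on replicate calls keeps many peaks through the test arm alone, in which listed peaks are the higher. The setting on mean score likewise draws in part on the test-arm score. The cause of these shifts was not tested. No paired analysis was possible because the tables hold pooled arms with no replicate columns, and for the same reason no replicate could be left out. The depth of the libraries is unknown.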

Other observations

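Some listed far stop-codon peaks carried replicate calls against the direction of the list. Of the 345 listed far peaks 71 (20.6%) were called in more comparator than test replicates, against 302 of 2823 listed near peaks (10.7%) and 15.4% of all listed peaks. More test calls were recorded for 188 (54.5%), against 59.2% of listed near peaks and 55.6% of all listed peaks. Of the 3 far peaks called in all 3 comparator replicates and no test replicate, 2 were in the METTL3-dependent list. These are too few for a share, and the listed share of the 294 such peaks among all peaks was not taken. In the authors' deposited table, uc009ant.2, on chromosome 5 at position 147830554, scored 1.64 (test) and 2.50 (comparator) with an unadjusted p of 0.00457, and 3.41 and 2.80 on the second version with p = 0.144. It met the list's rule through the p of one version and the direction of the other. This held for 8 listed far peaks in all (2.32%), against 1.56% of listed near peaks and 5.11% of all listed peaks. In the authors' deposited table uc007zil.1, on chromosome 16 at position 45250567, scored 2.86 and 3.15 on the first version and 4.44 and 3.71 on the second, p = 0.0257.

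On 38 transcripts 2 far stop-codon peaks stood together, with both listed on 6 of them, 1 on 10 and none on 22. In uc007mik.1, on chromosome 11, the peaks at positions 115506984 and 115506920 lay 64 nt apart, with the motif 211 nt upstream of the first and 171 nt downstream of the second, so both fell in 1 stretch with no motif. Their first-version scores were 3.04 against 2.36 and 2.81 against 2.24. In uc008dum.1, on chromosome 17, the peaks at 87396494 and 87396562 lay 68 nt apart, with the motif 195 nt upstream of the first and 152 nt downstream of the second. Their first-version scores were 2.17 against 1.82 and 2.12 against 1.99, and their second-version ones 3.58 against 2.62 and 3.35 against 2.63.

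The 162 far peaks with no call in any replicate still had a median test-arm score of 1.65 and a median comparator-arm score of 1.18. Of them 53 (32.7%) were listed, against 36.8% of the 912 near peaks with no call, a gap of 4.13 percentage points (-4.03 to 11.6). The X chromosome held 30 far stop-codon peaks (3.25%) and 3.06% of all peaks.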
